A study of Mus musculus with 6 samples.

Results

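Interleukin-6 (Il6), its receptor chains (Il6ra, Il6st and Osmr), the kinase Jak2, the transcription factors Stat3 and Stat6, and the feedback inhibitors Socs1, Socs2 and Socs3 were followed in RNA from isolated alveolar type II cells, the surfactant-making epithelial cells of the lung. These 10 genes were taken by name, as every probe set whose platform annotation carries exactly one of the symbols, which gave 28 of the 45101 probe sets on the array. In one group the mice carried SpC-rTTA, Otet-CRE, Insig1 flox/flox and Insig2-/-, so that Cre recombinase, switched on by doxycycline under the surfactant protein C driver, deleted Insig1. The control mice were Insig1 flox/flox and Insig2-/- and lacked either SpC-rtTA or Otet-CRE. Both groups were thus Insig2-/- by genotype. Both were 2 months old and have doxycycline in their labels, begun at E6.5 and ended at E12.5. Each of the 6 arrays held 1 independent pool of RNA, with 3 pools per genotype, and how many mice made up a pool is not stated in any source used here. No group had the complete Cre system with Insig1 intact, so an effect of the Cre system and one of Insig1 loss cannot be told apart.

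IL-6 binds its receptor chain IL-6Rα, and the pair recruits gp130, the signalling chain encoded by Il6st that the whole cytokine family shares. Oncostatin M uses gp130 with its own chain, encoded by Osmr. JAK kinases bound to these chains phosphorylate STAT3, which enters the nucleus and switches on acute-phase genes and Socs3, whose product binds gp130 and JAK and shuts the signal down. STAT6 is instead the main transducer of IL-4 and IL-13. In the lung epithelium the IL-6 family is known for acute-phase and protective responses to injury.

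Sequence near a start of 2 of these genes is printed as background. Il6 was taken because it had the largest difference of the 10 genes, and Socs3 because it is the textbook STAT3 target among them. The arrays do not read whether the marked letters are used. Sequences are from RefSeq on GRCm38.p6, given 5′ to 3′ on the gene's strand, with the letters searched for in capitals. The Il6 window covers the 250 bases before the annotated start, chr5:30012864-30013113 on the + strand, and its capitals mark, from left to right, an AP-1 motif (TGANTCA), a C/EBP motif (TTGNGCAA) and an NF-κB motif (GGG, any 2 bases, then TTTCC).
Il6: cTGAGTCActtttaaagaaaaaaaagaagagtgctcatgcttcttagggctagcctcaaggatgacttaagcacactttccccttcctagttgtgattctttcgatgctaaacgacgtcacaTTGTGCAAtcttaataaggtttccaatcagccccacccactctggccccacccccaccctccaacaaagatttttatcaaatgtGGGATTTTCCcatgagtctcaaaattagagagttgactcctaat
The Socs3 stretch covers 30 bases, chr11:117969501-117969530 on the - strand, and its capitals mark a STAT motif (TTCNNNGAA) between 154 and 146 bases before the start used by the sequence table. This stretch lies inside the gene's annotated extent.
Socs3: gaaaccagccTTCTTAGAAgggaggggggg
Of the 10 genes, 9 had a window in the sequence table, and Socs2 had none there. Both strands were searched, and the wider spacing that STAT6 prefers (TTC and GAA with any 4 bases between them) was searched too. The matches found did not overlap each other. Among all 32851 windows of 250 bases, 7.02% held TTCNNNGAA, 5.85% the STAT6 spacing, 1.41% the NF-κB letters, 2.61% the C/EBP letters and 6.75% the AP-1 letters. None of these letters was found in the windows of Il6ra, Il6st, Osmr, Jak2, Stat3, Stat6 and Socs1, which says only that they are not in those 250 bases. The Osmr window lies inside that gene's annotated extent, and the Stat3 and Stat6 windows run into theirs.

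Il6 was measured by 1 probe set (1450297_at). It read 3361, 4617 and 5369 in control replicates 1, 2 and 3, and 8541, 8477 and 8079.9 in deleted replicates 1, 2 and 3, as MAS5 signal on a linear scale. Every deleted pool lay well above every control pool, and the deleted pools lay closer together than the controls. The means were 8366 ± 249.9 in deleted and 4449 ± 1015 in control pools (SD, n = 3 each), a 1.91-fold difference. On the log2 scale the difference was 0.94 ± 0.17 (moderated SE), with a 95% interval of 0.56 to 1.31. It ranked 116 by p among the 27022 probe sets tested together, and its adjusted p of 0.065 (limma, two-sided, Benjamini-Hochberg) missed the threshold of 0.05.

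The Il6 call sat at the threshold and turned with the processing, while its direction did not. Fitted over 12952 genes, each by its brightest probe set, the same difference had an adjusted p of 0.044 (limma). It also passed without control replicate 2 (0.044) and without control replicate 3 (log2 1.09, adjusted p = 0.015). It did not pass without control replicate 1 (log2 0.75, adjusted p = 0.11) or without deleted replicate 1, 2 or 3 (0.26, 0.32 and 0.27). Over all 15 alternatives the log2 difference stayed between 0.75 and 1.09, and 6 of them passed.

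**Figure D1:**
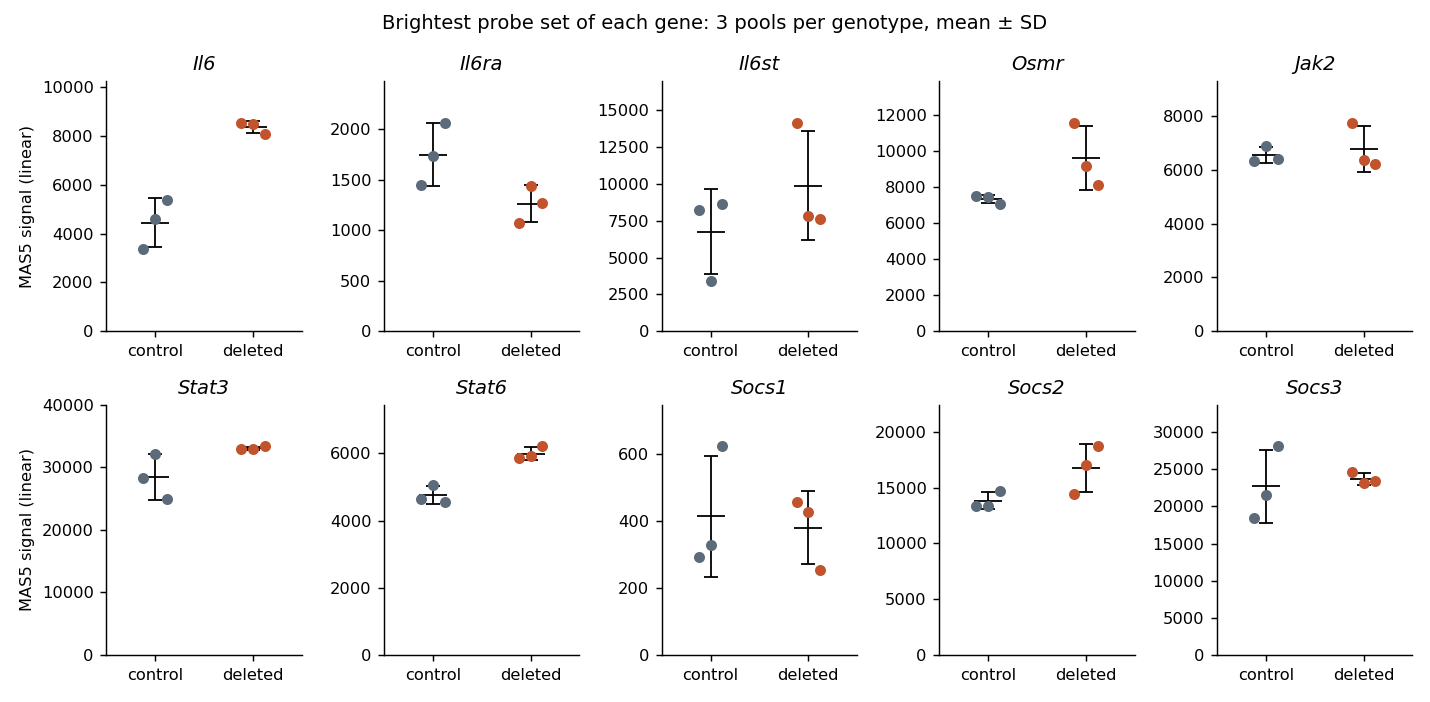
MAS5 signal (linear scale, each axis from 0) of the brightest probe set of each of the 10 genes, with 1 point per RNA pool and bars for the mean ± SD over 3 pools; grey is control and orange is Insig1-deleted. The deleted pools lie above all control pools for Il6, Osmr, Stat3 and Stat6, and below them for Il6ra. For Il6st, Jak2, Socs1, Socs2 and Socs3 the groups overlap.

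Across the 10 genes, 26 of the 28 probe sets lay above the filter on dim signals (a mean signal of at least 271), and each gene had at least 1 of these. None of the 26 passed an adjusted p of 0.05 (limma), where 0.322% of all probe sets tested did (0.315% higher and 0.0074% lower). Before adjustment, 5 were higher at p under 0.05, for Il6, Osmr (both), Stat6 and Socs2, against 4.84% of all tested, and 1 lower, for Il6ra, against 5.35%, together 6 of 26 against 10.2%. The deleted pools lay wholly above the controls in 8 of the 26, where 7.69% of all probe sets did so, and wholly below in 1, against 7.88%, so that 9 of 26 did not overlap, against 15.6%. The difference was above 0 in 20 of the 26 and in 46.2% of all tested. The median log2 difference of the 26 was 0.09, and that of all probe sets tested was -0.02. Probe sets of the same gene can read the same transcripts, so these counts do not stand for 26 separate measurements. By brightest probe set, 4 of the 10 genes lay wholly above (9.2% of genes did) and 1 wholly below (7.9%).

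**Figure D2:**
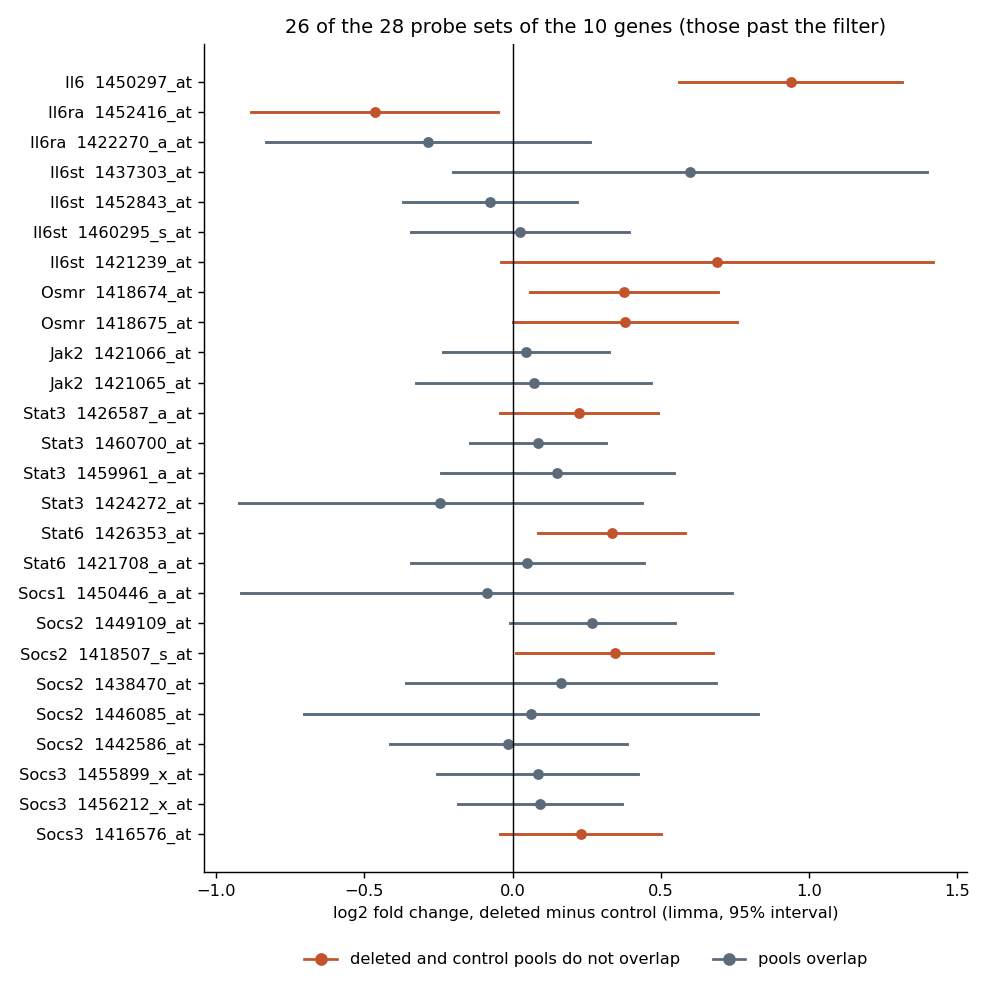
Log2 fold change, deleted minus control, with its 95% interval (limma, 3 pools per group), for the 26 probe sets past the filter, 1 line each; orange marks probe sets whose deleted and control pools do not overlap. Il6 stands farthest from 0 at 0.94, Il6ra lies on the negative side at -0.47 and -0.28, and the Jak2, Stat3 and Socs3 intervals all include 0.

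The ligand-binding chain Il6ra had values on the other side of 0 from its ligand. Its brightest probe set (1452416_at) read 1442, 1734 and 2062 in control pools and 1073, 1438 and 1269.6 in deleted pools. The highest deleted pool and the lowest control pool were almost level, so the groups were separated by a narrow margin. The difference was log2 -0.47 ± 0.19 (SE), 1.38-fold lower, with a 95% interval of -0.88 to -0.05 and an adjusted p of 0.44 (limma). The dimmer probe set (1422270_a_at) read 580.1, 645 and 973 in control pools and 540.1, 562 and 665 in deleted pools, which overlapped, with a difference of -0.28 ± 0.24. Both probe sets stayed below 0 in every alternative in which they were tested. Without control replicate 3 the brighter one was at -0.34 and the dimmer one at -0.06.

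The 4 probe sets of Il6st, the shared gp130 chain, did not give 1 picture. The brightest (1437303_at) read 8269, 3427 and 8612 in control pools and 14164, 7848 and 7630 in deleted pools. A high deleted replicate 1 and a low control replicate 2 set its log2 difference of 0.60 ± 0.36 (adjusted p = 0.62, limma), which was 0.17 without that control pool and 0.31 without that deleted pool. The next brightest (1452843_at) read 6487, 4960 and 5679 against 5077, 5412 and 5677, a difference of -0.08 with a 95% interval of -0.37 to 0.22. Another (1460295_s_at) gave 0.02 and the dimmest (1421239_at) 0.69, the latter from signals of 199 to 404 in control and 405 to 555.5 in deleted pools, close to the filter. Without control replicate 1, the lowest pool, the latter was 0.38. The probe set of brightest signal thus differed most between pools of the same genotype, and the more even ones lay near 0.

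Osmr, the oncostatin M receptor chain, had higher signals in deleted pools on both of its probe sets above the filter. The brighter (1418674_at) read 7531, 7433 and 7082 in control pools and 11585, 9190.1 and 8122 in deleted pools. The controls were tight and every deleted pool exceeded them, with deleted replicate 1 highest. The log2 difference was 0.38 ± 0.14 (1.30-fold, 95% interval 0.06 to 0.69, adjusted p = 0.42, limma), and 0.23 without deleted replicate 1. The dimmer one (1418675_at) read 727, 723 and 832 against 964, 1021 and 977, also without overlap, at 0.38 ± 0.17 (adjusted p = 0.49). The last probe set (1459217_at) lay below the filter, with signals of 138 to 357 over the 6 pools. Neither of the tested probe sets passed, and both kept their direction in every alternative.

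Jak2, the kinase that receptors of this family share with many other cytokine receptors, had values close to 0. Its brighter probe set (1421066_at) read 6333, 6882 and 6399.8 in control pools and 7751, 6366 and 6206 in deleted pools. The groups overlapped, with deleted replicate 1 alone above the rest. The log2 difference was 0.04 ± 0.12 with a 95% interval of -0.23 to 0.32, and 0.07 on the other probe set (1421065_at). Changes of more than 1.25-fold upward lay outside the interval of the brighter probe set.

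Stat3 transcript was abundant on its best probe set and differed little. That probe set (1426587_a_at) read 28367, 32133 and 24911 in control pools and 32894, 32968 and 33369 in deleted pools. The deleted pools were almost identical and just above control replicate 2, so the groups did not overlap, but the controls were spread. The log2 difference was 0.22 ± 0.12 (1.17-fold, 95% interval -0.04 to 0.49, adjusted p = 0.57, limma), and 0.13 without control replicate 3. The second probe set (1460700_at) read 14483, 13233 and 13431 against 15081, 14532 and 14017, at 0.09 ± 0.10. The other 2 gave 0.15 (1459961_a_at) and -0.24 (1424272_at), the latter with control signals from 1130.2 to 2781. STAT3 is switched on by phosphorylation, which these arrays do not read.

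Stat6 had the second smallest p of the 10 genes. Its brighter probe set (1426353_at) read 4640.2, 5072 and 4562 in control pools and 5864, 5914 and 6210.2 in deleted pools. Both groups were tight and clearly apart. The log2 difference was 0.33 ± 0.11 (1.26-fold, 95% interval 0.09 to 0.58, unadjusted p = 0.014, adjusted p = 0.35, limma), and it lay between 0.31 and 0.41 in all 15 alternatives without passing in any. The dimmer probe set (1421708_a_at) did not share it, at 1809.8, 1417 and 1550.3 against 1510, 1463 and 1993 (log2 0.05, 95% interval -0.34 to 0.44).

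The SOCS genes, which encode inhibitors induced by the cytokines they restrain, had smaller differences than Il6. Socs3 had 3 probe sets. The brightest (1455899_x_at) read 18490.4, 21539.9 and 28093 in control pools and 24661, 23112 and 23442 in deleted pools, with every deleted pool inside the control range. Its log2 difference was 0.09 ± 0.15 (95% interval -0.25 to 0.42, adjusted p = 0.90, limma). The second (1456212_x_at) gave 0.09 ± 0.12, from 13665, 17012 and 16216 against 17222.5, 15145 and 17560. The dimmest (1416576_at) read 5408, 5340.4 and 6558.5 against 6658, 6661 and 6895, without overlap, at 0.23 ± 0.12 (95% interval -0.04 to 0.50, adjusted p = 0.56). By the array maker's naming, the _x_at sets hold probes that can also match other transcripts and the _at set does not. All 3 upper limits, the highest at 1.42-fold, lay below the lower limit of 1.48-fold for Il6. The difference between the 2 genes was not itself tested.

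Socs2, an inhibitor best known for growth hormone and STAT5 signalling, had 5 probe sets above the filter. The brightest (1449109_at) read 13377, 13334 and 14689 in control pools and 14411, 17041 and 18680.1 in deleted pools, overlapping only through deleted replicate 1 and control replicate 3. Its log2 difference was 0.27 ± 0.12 (95% interval -0.01 to 0.55, adjusted p = 0.50, limma). The next (1418507_s_at) read 14889.6, 14211 and 10608 against 14978, 17336 and 17682, at 0.34 ± 0.15 (adjusted p = 0.48), a separation that deleted replicate 1 and control replicate 1 nearly closed. Control replicate 3 was low there, and without it the difference was 0.19. The 3 dimmer ones gave between -0.01 and 0.16, and the last (1441476_at) lay below the filter with signals of 144 to 451.

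Socs1, the inhibitor of interferon and JAK signalling, was dim. Its single probe set (1450446_a_at) read 292, 326.5 and 622 in control pools and 456, 427 and 254 in deleted pools. The groups overlapped fully and the value of -0.09 ± 0.37 (95% interval -0.91 to 0.74) leaves changes of up to 1.67-fold upward inside its interval.

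**Figure D3:**
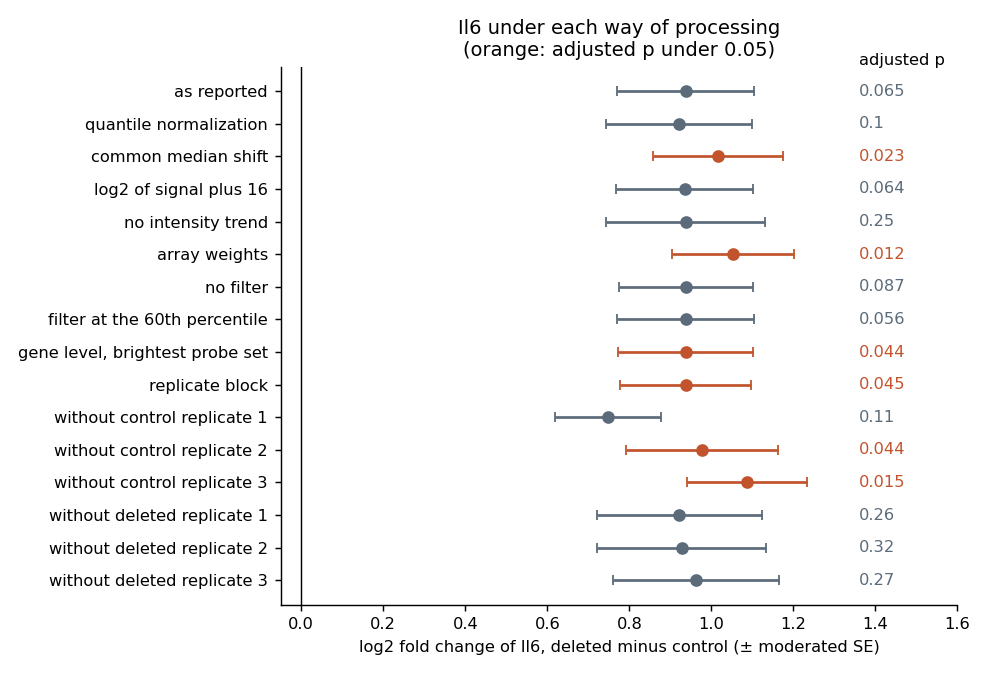
Log2 fold change of Il6 (deleted minus control, point) with its moderated standard error (bar) under the reported settings and 15 alternatives, with the adjusted p (limma) at the right; orange marks adjusted p under 0.05. The difference stays between 0.75 and 1.09, while its adjusted p runs from 0.012 to 0.32.

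Among the other genes of the pathway none passed the threshold, and the smallest p-values all belonged to genes with higher signals in deleted pools. Of 35 other IL-6 family and JAK-STAT genes, 29 had a probe set above the filter, and the rest were not analysed here. By limma 0 of 29 rose and 0 fell, where 0.463% of 12952 genes passed. At an unadjusted p under 0.05, 7 were higher (5.93% of all genes) and 0 lower (5.95%). The median log2 difference was 0.17, against -0.0049 for all genes by brightest probe set. The smallest p belonged to Stat5a, a transducer of GM-CSF, growth hormone and prolactin signals, which read 1361, 1127 and 1415.5 in control pools and 2222, 1955 and 2080.1 in deleted pools (log2 0.69 ± 0.15, adjusted p = 0.16). It was followed by Cish, a STAT5-induced inhibitor of the SOCS family, at 3921, 4041 and 4807 against 6074, 5546 and 6245 (0.49 ± 0.13, adjusted p = 0.24). Both genes had deleted pools wholly above the controls.

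By role, and chosen after their values were seen, the other family genes divided as follows. Among STATs, Stat5b stood at 0.47, Stat4 at 0.84 and Stat2 at 0.24. Among kinases, Jak3 stood at 0.52, Jak1 at 0.32 and Tyk2 at 0.08. The sister ligands had mixed signs, with Osm at 0.40, Il11 at 0.16, Lif at -0.23 and Clcf1 at -0.39, and Ebi3, whose product is a cytokine subunit, was at 0.45. The receptor chains also had mixed signs, with Lifr at -0.28, Cntfr at 0.20 and Il27ra at 0.33. The inhibitors Socs4, Socs5, Socs6 and Socs7 lay between -0.20 and -0.04, on the other side of 0 from Cish. The phosphatase genes that turn JAKs and STATs off gave 0.29 for Ptpn2, 0.10 for Ptpn6 and 0.03 for Ptpn11. None of the genes first named here passed (limma, adjusted p between 0.35 and 0.96).

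Among textbook STAT3 targets, the largest positive differences lay in genes of secreted acute-phase proteins. Of 20 listed, 18 lay above the filter and Fga and Fgb below it. With p adjusted over all probe sets, 2 of the 18 rose, where 0.448% of all genes did, and 0 fell. These were Fgg, the fibrinogen γ chain, at 371, 176 and 200.2 in control and 1089.8, 1541 and 1028 in deleted pools (log2 2.35 ± 0.32, adjusted p = 0.018, limma), and Lcn2, the siderophore-binding lipocalin, at 23175, 36119 and 15612 against 62218, 72557 and 77100 (1.58 ± 0.25, adjusted p = 0.045). The deleted pools lay far above the controls for both. The control pools of Fgg had a mean log2 signal of 7.88, under the filter of 8.08. Fgg thus passed the filter only through its deleted pools, and its difference rests on dim control signals. Lrg1 stood at 1.42 (adjusted p = 0.054) and Saa3 at 1.63 (0.096), and Hp, haptoglobin, at 0.04. Reg3g, an antimicrobial lectin, read 2047, 1323 and 1972 in control pools and 155, 2523 and 2712.5 in deleted pools. Its log2 difference of -0.78 ± 0.91 came from deleted replicate 1 alone, and the other deleted pools lay above every control. The transcription factor, cell cycle and survival genes lay between -0.23 and 0.64 with none past the threshold. Birc5 (0.64), Ccnd1 (0.47) and Pim1 (0.34) had deleted pools wholly above the controls, Cebpd was at 0.45, Bcl3 at 0.28, Junb at 0.25, Pim3 at 0.22, Cebpb at 0.02 and Mcl1 at -0.08, and Myc and Bcl2l1 were both at -0.23. The list's median was 0.28. Its count was 1 without control replicate 1, 4 without control replicate 2 and 3 without control replicate 3. It was 0 without deleted replicate 1, 2 or 3. Over the whole table the count also rose without control replicate 2 or 3 and fell without any other pool (given below). Fgg and Lcn2 are also induced through NF-κB or C/EBP factors, and their increase was known when the list was drawn up.

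Genes around STAT6 held both larger and smaller differences than Stat6 itself. Of 18 IL-4 and IL-13 receptor genes and STAT6 targets, 13 lay above the filter. The cytokine genes Il4 and Il13 and the eotaxin genes Ccl11 and Ccl24 lay below it. With p adjusted over all probe sets, 3 of the 13 rose, where 0.448% of all genes did, and 0 fell. These were Fcer2a, the low-affinity IgE receptor (log2 2.13 ± 0.19, adjusted p = 0.0060, limma), Retnla, a resistin-like protein of type 2 inflammation (2.15 ± 0.22, adjusted p = 0.0061), and Chil3, a chitinase-like protein (1.06 ± 0.16, adjusted p = 0.035). The receptor chain Il4ra read 1343, 1214 and 1404 in control pools and 2155, 1994 and 2628 in deleted pools, without overlap (0.77 ± 0.16, adjusted p = 0.11), while Il13ra1 was at -0.05. Mrc1 (0.89, adjusted p = 0.069) and Ccl22 (1.24, adjusted p = 0.089) missed the threshold, Ccl17 stood at 0.62 and Tgm2 at 0.47. On the other side of 0 were Arg1 (-0.45), the decoy receptor gene Il13ra2 (-0.47), Pparg (-0.07) and Klf4 (-0.27). Klf4 alone had deleted pools wholly below the controls, with an unadjusted p under 0.05. The list's median was 0.62. The count was 2 without control replicate 1, 4 without control replicate 2 and 5 without control replicate 3. It was 2, 0 and 2 when deleted replicate 1, 2 or 3 was the pool left out. Here too the count over the whole table rose and fell with the same pools left out (given below). The increases of the 3 genes were known when the list was drawn up.

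**Figure D4:**
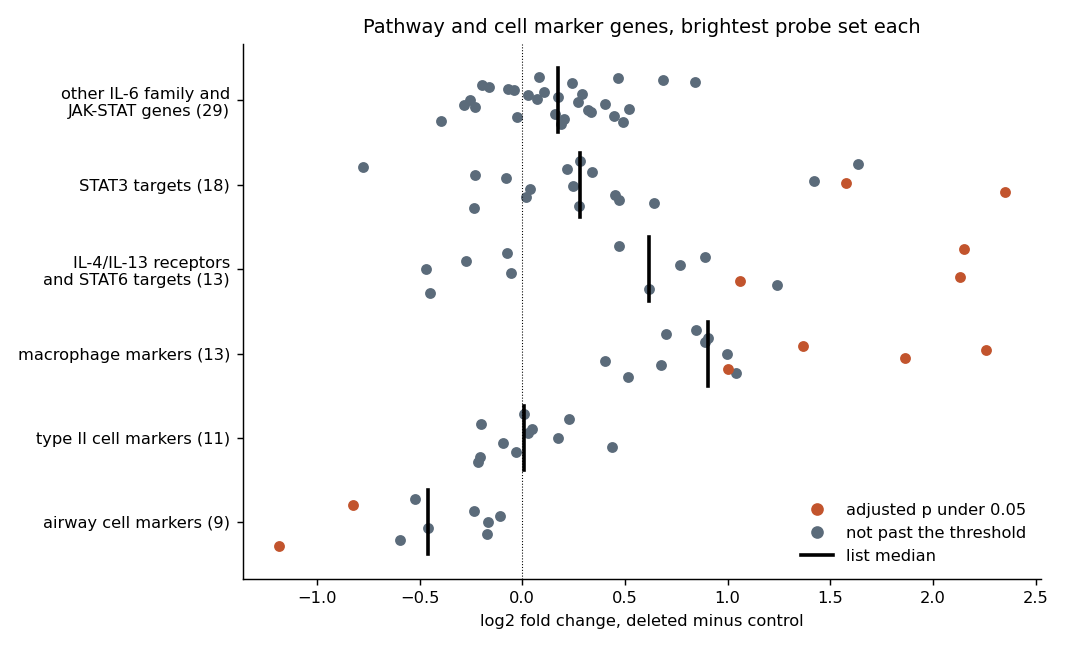
Log2 fold change, deleted minus control, of each gene of 3 pathway lists and 3 cell marker lists by its brightest probe set above the filter (points; orange for adjusted p under 0.05 by limma), with the list median as a black bar and the number of genes in parentheses. Medians are 0.17 for the other IL-6 family and JAK-STAT genes, 0.28 for STAT3 targets, 0.62 for STAT6-related genes, 0.90 for macrophage markers, 0.01 for type II cell markers and -0.46 for airway markers.

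Macrophages are among the cells that make IL-6 and respond to IL-4, and most of their markers had higher signals in deleted pools. All 13 macrophage markers lay above the filter, 4 rose (Gpnmb, Marco, Cd68 and Mpeg1), where 0.448% of all genes did, and 11 had deleted pools wholly above the controls, where 9.2% did. Their summed signal ran from 27617 to 37438 in control and from 63036 to 74311 in deleted pools. Their median log2 difference was 0.90. Mrc1 belongs to both this list and the STAT6 list. In bulk RNA, more cells of a type and more RNA per cell cannot be told apart, and the part of macrophages in the values of Il6, Stat6 or the lists was not tested. By likeness of log2 signal over the 6 pools, the genes nearest to Il6 were Csf1r, a macrophage receptor gene of the marker list (Pearson r = 0.998), Rab5c (0.997) and Dlg4 (0.994). Those nearest to Stat3 were Hpcal1, Dgkd and Tuba8 (0.994, 0.994 and 0.993), and those nearest to Socs3 were Foxred1, Imp4 and Dcp1b (0.995, 0.986 and 0.985). These are descriptions over 6 points in 2 groups, and 78, 111 and 40 of 12357 genes exceeded 0.95 for Il6, Stat3 and Socs3.

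The isolates carried the type II cell markers, with summed signals of 862485 to 1021221 in control and 837034 to 996452 in deleted pools over 11 genes (median log2 0.01, none past the threshold by limma and none at an unadjusted p under 0.05). They also carried other cells' markers. Airway markers had a median of -0.46, and 2 of 9 fell (Ccdc153 and Sox2), where 0.0154% of all genes did. Lymphocyte markers had a median of 0.40, with 0 of 9 past the threshold and 3 higher at an unadjusted p under 0.05. The 2 neutrophil markers above the filter had a median of 0.98, with neither past the threshold and both higher at an unadjusted p under 0.05. Of all genes, 5.93% were higher at that unadjusted p. Another 3 neutrophil markers (Csf3r, Cxcr2 and Mpo) lay below the filter. The medians were 0.02 for type I, 0.04 for endothelial and -0.18 for mesenchymal markers, against -0.0049 for all genes. Of 8 endothelial markers 1 rose, Car4, where 0.448% of all genes did. Insig1 read 1482 ± 251 in deleted and 2862 ± 519.5 in control pools (SD, n = 3 each), and no source used here says whether its probe set lies in the deleted part. Control replicate 3 stood apart on the first principal component, at -61.5 where the other pools lay between -7.64 and 24.5, with an array weight of 0.478, the smallest of the 6. In all, 87 probe sets passed. Leaving out control replicate 1, 2 or 3 gave 57, 461 or 198, and leaving out deleted replicate 1, 2 or 3 gave 29, 3 or 17. The number of arrays limits the precision of all these values.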

How the data were processed

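Each of 6 RNA pools was measured on 1 Affymetrix array. Per the submitters' processing notes MAS5 (version not stated there) made the deposited intensities, which are linear. MAS5 treats each array alone and gives dim probe sets noisy ratios. Genes were named from the platform annotation: of 45101 probe sets, 64 were controls, 34945 named 1 gene, 932 several and 9160 none here.

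Log2 was taken after raising signals below 1 to that value, without further normalization (array medians 426 to 479). Probe sets below the 40th percentile of mean log2 signal (8.08) were left out, which kept 27022. The test was limma 3.58.1 (R 4.3.3; eBayes with an intensity trend, two-sided), Benjamini-Hochberg over all 27022, threshold 0.05. With 3 pools against 3 an exact permutation test cannot go below 0.1, so limma alone was used. P-values set the difference between groups against the spread between pools, moderated over all probe sets tested. The spread between mice was not measured. Pathway lists used each gene's brightest probe set naming it alone.

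The rule for named genes took every probe set of the 10 genes, up to 4 called genes of each pathway list (or the 2 smallest p), the 2 smallest p and the brightest gene of each marker list, and the 3 genes most like Il6, Stat3 and Socs3. Other list genes are named by role, after their values were seen, and markers only where called or below the filter. The 10 genes, the lists and the motifs were chosen with earlier results of these data known. The alternatives were quantile normalization, a common median, array weights, no filter or one at the 60th percentile, log2 of signal plus 16, eBayes without the trend, the gene level, the replicate number as a block, and each pool left out. The fit was also run on simulated data with known changes, and no result given here rests on that run. Figures were drawn with matplotlib 3.10.9.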

Additional observations from a re-analysis of the deposited data

How the results depend on the processing

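The count of probe sets of the 10 genes past the threshold was 0 as reported. It was 1, Il6, with a common median (adjusted p = 0.023, limma) and with array weights (0.012). It was also 1, again Il6, at the gene level (0.044) and with the replicate number as a block (0.045). Il6 missed the threshold with quantile normalization (0.10), without the intensity trend (0.25) and without a filter (0.087). It also missed it with the filter at the 60th percentile (0.056) and with log2 of signal plus 16 (0.064). With a pool left out the count was 0 to 1. The whole table gave 131 with a common median, 4 without an intensity trend, 170 with array weights, 145 with the replicate block and 3 to 461 with a pool left out, against 87 as reported. Same-numbered pools deviated together weakly (correlations of 0.107, 0.054 and 0.133), each pool correlated best with its own number, and no label pairs them, so the block is a hint from the data only.

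Of the 26 probe sets, 13 kept their direction in every alternative that tested them. The other 13 all lay within 0.25 of 0. Socs2 (1442586_at) turned with quantile normalization (0.028), a common median (0.064) and array weights (0.023), Il6st (1452843_at) with a common median (0.0026), and Stat6 (1421708_a_at, -0.016) and Socs1 (0.064) with array weights. With a pool left out, the ranges were -0.12 to 0.057 for Socs2 (1442586_at), -0.17 to 0.020 for Il6st (1452843_at), -0.11 to 0.13 for Il6st (1460295_s_at), -0.056 to 0.10 and -0.073 to 0.19 for Jak2, -0.011 to 0.32 and -0.56 to 0.090 for Stat3, -0.092 to 0.15 for Stat6, -0.30 to 0.25 for Socs1, -0.066 to 0.31 and -0.35 to 0.28 for Socs2 (1438470_at, 1446085_at), and -0.052 to 0.25 and -1.9e-04 to 0.16 for Socs3 (both _x_at). The cause was not tested. Values near the filter, such as those of Socs1, are the least certain.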
